A study of Mus musculus with 10 samples.

Results

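Interferon-stimulated and MHC class I genes were examined in brown adipose tissue (BAT) lacking STAT5 in adipocytes. The group is a list of 41 gene symbols, matched in the deposited gene table and joined to the counts by Entrez gene identifier. All 41 were found and all 41 passed the filter on low counts, out of 13568 genes tested and 24454 genes listed in the count files. RNA came from male mice on a C57BL/6N background, 5 control and 5 *Stat5* Adipoq, aged 2 months and fed ad libitum, with 1 library per mouse. The sample titles call the libraries of both genotypes basal. Controls were littermates carrying floxed *Stat5* without Adipoq-Cre according to the methods, whereas the labels call them wild type. Adipoq-Cre acts in adipocytes, so the other cells of *Stat5* Adipoq BAT keep both *Stat5* genes. Counts on genes ranged from 8488129 to 19514904 in control libraries and from 9401827 to 15686868 in *Stat5* Adipoq libraries.

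Interferons bind cell surface receptors that signal through Janus kinases. Transcription factors that include STAT2 and IRF9 then act at the interferon-stimulated response element (ISRE) in promoters of antiviral genes. MHC class I molecules display peptides that the immunoproteasome cuts and the TAP transporter carries into the endoplasmic reticulum, and many genes of this route also respond to interferon. STAT5 is activated mainly by growth hormone, prolactin and several interleukins.

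The deleted genes were examined first. *Stat5a* was 110, 130, 92.6, 86.9 and 107 CPM (read counts scaled to the library total by edgeR's TMM method) in control replicates 1 to 5 and 20.7, 15.8, 16.2, 16.6 and 16.1 CPM in *Stat5* Adipoq replicates 1 to 5. *Stat5b* was 82.0, 84.8, 83.7, 76.6 and 91.9 CPM in controls and 21, 22, 21.4, 22.9 and 21.5 CPM in *Stat5* Adipoq BAT. Both were lower in all 5 *Stat5* Adipoq libraries than in any control, so no library went against its label.

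Most interferon-stimulated members had somewhat higher levels in *Stat5* Adipoq BAT without passing the test. Of the 10 members of antigen processing and class I presentation, 8 had a log2 fold change below 0, with *B2m* and *Psmb10* close to 0. Among these only *Tap2* passed the test, and it lost its call in most fits that left out 1 library. By edgeR's quasi-likelihood test with adjustment over all 13568 genes (threshold 0.05), 1 of 41 members was called lower, against 1.31% of all genes, and 0 of 41 were called higher, against 1.40%. DESeq2 called 1 lower, against 2.46% of all genes, and 1 higher, against 2.40%. At an unadjusted p below 0.05, 8 members were higher and 3 lower by edgeR, against 7.18% and 8.03% of all genes. No member had libraries that did not overlap between the genotypes, a separation found for 2.35% of all genes in the higher and 2.04% in the lower direction. The log2 fold change was above 0 for 31 of 41 members (75.6%), against 49.2% of all genes, and below 0 for 10, against 50.8%. Its median was 0.21 over the members and -0.003 over all genes, and over the members it moved to 0.137 when control replicate 3 was left out and to 0.319 when control replicate 5 was. BAT is a mixture of cells, and fewer cells of a type cannot be told apart from less RNA per cell.

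**Figure D1:**
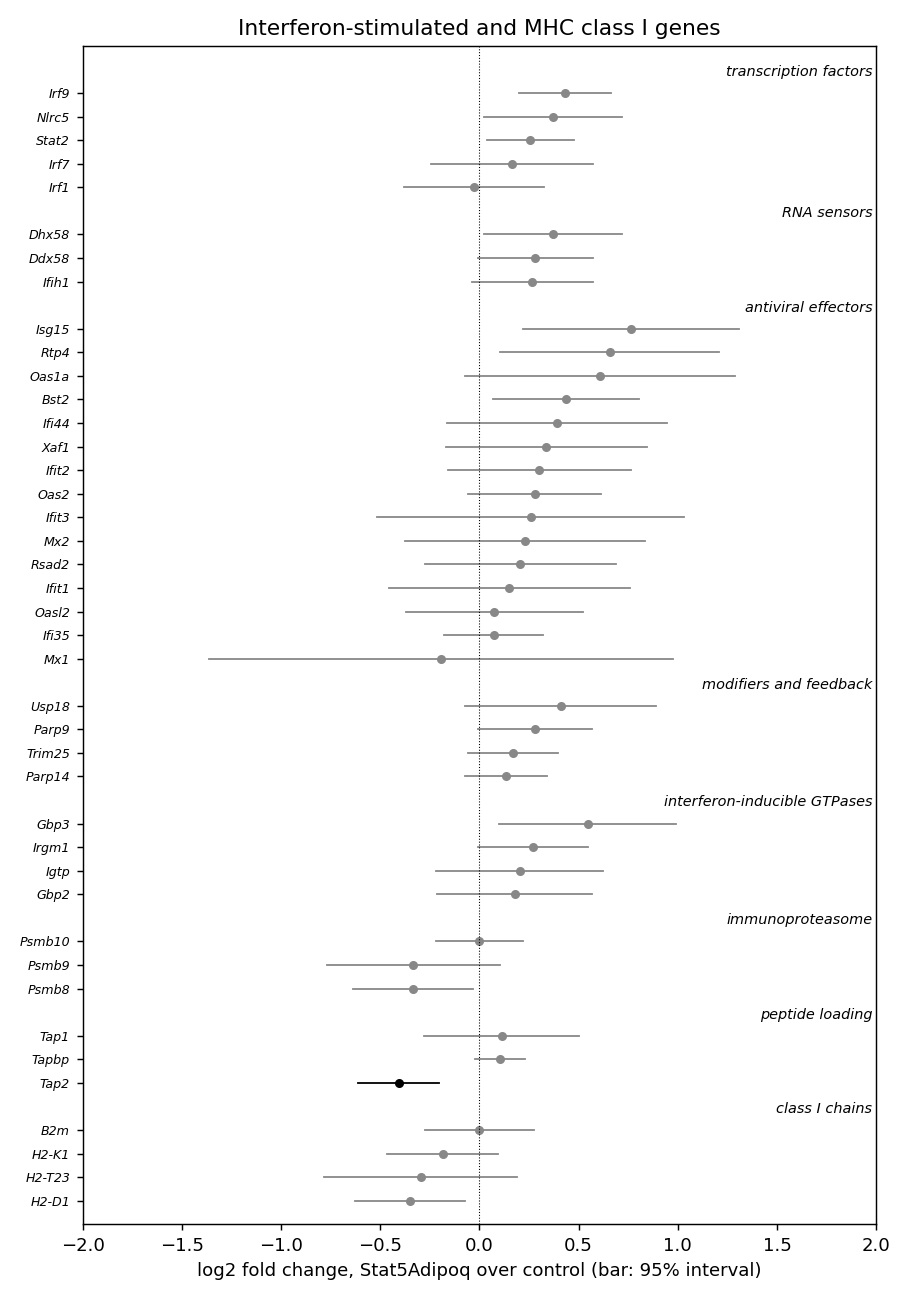
Log2 fold change of each of the 41 members, *Stat5* Adipoq over control, with its 95% confidence interval from edgeR's quasi-likelihood fit (5 libraries per genotype), grouped by role. *Tap2*, in black, is the member called, and 29 of the 31 genes above the immunoproteasome lie to the right of 0.

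The libraries were not alike apart from genotype. Skeletal muscle markers (5 of 5 tested, *Myh4* the most abundant) summed to 48.2, 13.5, 3127, 3.49 and 229 CPM in control replicates 1 to 5 and to 35.5, 1.67, 4.62, 15.4 and 13.7 CPM in *Stat5* Adipoq replicates 1 to 5. Control replicate 3 was far above the other libraries and control replicate 5 came next. Control replicate 3 also had the fewest counts on genes of the 10 libraries (8488129). It was the lowest library for 19 of the 41 members, against 2432 of 13568 genes. Without control replicates 3 and 5, a choice made after the marker values were seen, 339 genes were called in place of 368, with *Tap2* called lower and *Isg15* called higher among the members. The part of muscle RNA in the results was not tested further.

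The transcription factors that act on these genes were 5 members, of which 4 had a log2 fold change above 0. *Irf9*, encoding a DNA-binding partner of STAT2, was 19.1, 20.1, 19.4, 20.3 and 23.2 CPM in control replicates 1 to 5 and 24.6, 22.6, 33.4, 30.6 and 26.7 CPM in *Stat5* Adipoq replicates 1 to 5. *Stat5* Adipoq replicates 3 and 4 were highest, and the genotypes overlapped only in control replicate 5 and *Stat5* Adipoq replicate 2. The log2 fold change of *Irf9* was 0.43 (standard error, SE, 0.11), for which edgeR gave an adjusted p of 0.055, with an exact two-sided permutation p of 0.016. DESeq2's Wald test gave an adjusted p of 0.011, and over all alternatives it ranged from 0.0113 to 0.599. *Stat2* averaged 29.9 ± 4.09 CPM in control BAT and 35.8 ± 3.72 CPM in *Stat5* Adipoq BAT, and *Nlrc5*, a transactivator of class I genes, was 21.3 ± 3.41 and 27.6 ± 7.08 CPM (SD, n = 5 each). The edgeR adjusted p-values were 0.24 and 0.30.

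*Irf1*, which is induced strongly by interferon-γ, had the highest level per exon length of these factors, 9.15 CPM per kb in control BAT. It was 37.3, 47.3, 24.9, 29.0 and 43.4 CPM in controls and 39.2, 34.6, 35.8, 27.9 and 40.7 CPM in *Stat5* Adipoq BAT. The *Stat5* Adipoq libraries lay inside the control range (log2 fold change -0.03, 95% limits -0.38 and 0.33). *Irf7* was 10.6 ± 2.27 and 11.9 ± 3.18 CPM (SD, n = 5 each).

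The RNA sensors, which detect viral RNA in the cytoplasm, were 3 members with log2 fold changes between 0.27 and 0.37. *Ddx58*, encoding RIG-I, had the highest level per exon length of the 3. It was 37.6, 30.1, 23.5, 30.5 and 38.9 CPM in controls and 38.3, 37.6, 48.7, 37.8 and 33.4 CPM in *Stat5* Adipoq BAT. *Stat5* Adipoq replicate 3 was highest and control replicate 3 lowest, with overlap among the rest (log2 fold change 0.28, 95% limits -0.01 and 0.57). *Dhx58* was 8.92 ± 1.20 and 11.5 ± 2.63 CPM and *Ifih1* was 16.1 ± 2.02 and 19.5 ± 4.19 CPM (SD, n = 5 each).

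Of 15 antiviral effectors, 14 had a log2 fold change above 0, with a median of 0.28, and 0 were called by edgeR or DESeq2, while 3 were higher at an unadjusted p below 0.05 by edgeR, against 7.18% of all genes. *Isg15*, a ubiquitin-like protein, was 2.49, 2.54, 3.37, 3.08 and 5.48 CPM in control replicates 1 to 5 and 4.53, 5.32, 7.11, 7.93 and 4.07 CPM in *Stat5* Adipoq replicates 1 to 5. Control replicate 5 lay above 3 of the *Stat5* Adipoq libraries, and *Stat5* Adipoq replicates 3 and 4 lay above all others. The log2 fold change of 0.76 (SE 0.25) was the largest among the members, with an edgeR adjusted p of 0.15 and an exact permutation p of 0.040. Without control replicate 5 it was 1.0 with an edgeR adjusted p of 0.040, and over all alternatives the adjusted p ranged from 0.040 to 0.508. *Isg15* had 26 to 83 counts per library, and the 95% limits of its log2 fold change were 0.22 and 1.31.

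*Rtp4*, a receptor transporter protein induced by interferon, was 6.13, 8.99, 5.53, 5.51 and 8.77 CPM in controls and 8.97, 8.91, 18.6, 11.8 and 7.03 CPM in *Stat5* Adipoq BAT. *Stat5* Adipoq replicates 3 and 4 lay above all controls, and the other 3 *Stat5* Adipoq libraries lay within the control range (log2 fold change 0.66, SE 0.25, edgeR adjusted p = 0.235). Without *Stat5* Adipoq replicate 3 the log2 fold change of *Rtp4* was 0.389. *Bst2*, encoding tetherin, which holds budding virus at the cell surface, had the highest level per exon length of the effectors, 25.6 CPM per kb in control BAT. It was 26.0, 20.7, 20.1, 24.3 and 24.3 CPM in controls and 22.7, 25.6, 45.1, 36.8 and 27.0 CPM in *Stat5* Adipoq BAT. *Stat5* Adipoq replicates 3 and 4 stood above the other 8 libraries (log2 fold change 0.44, SE 0.17, edgeR adjusted p = 0.24), and without *Stat5* Adipoq replicate 3 the log2 fold change was 0.272.

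The remaining effectors had log2 fold changes between -0.19 (*Mx1*) and 0.61 (*Oas1a*). Both had between 4 and 21 counts per library, with 95% limits of -1.36 and 0.98 for *Mx1* and -0.07 and 1.29 for *Oas1a*. In *Ifit1*, *Ifit2*, *Ifit3* and *Mx1* the highest library was a control, replicate 5. Without that library all 31 interferon-stimulated members, *Mx1* included, had a log2 fold change above 0. *Ifit3* shares 51.2% of its 50-base words with other genes and *Oas1a* 57.6%, so their counts are uncertain.

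All 4 modifiers and feedback regulators had log2 fold changes above 0, from 0.13 to 0.41. *Trim25*, the ubiquitin ligase that acts on RIG-I, had the highest level per exon length among them. It was 44.5, 51.2, 46.1, 45.2 and 53.1 CPM in controls and 58.2, 39.7, 59.2, 58.4 and 55.3 CPM in *Stat5* Adipoq BAT. In *Stat5* Adipoq BAT 4 libraries lay above all controls and replicate 2 lay below them (log2 fold change 0.17, SE 0.10, edgeR adjusted p = 0.48), and without that library the log2 fold change was 0.266 (adjusted p = 0.073). *Usp18*, which removes ISG15 from proteins and dampens receptor signalling, was 5.29 ± 1.58 and 7.13 ± 1.92 CPM (SD, n = 5 each).

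The interferon-inducible GTPases, which act against intracellular pathogens, also had 4 of 4 log2 fold changes above 0. *Gbp3* was 26.8, 32.2, 23, 30.6 and 44.2 CPM in controls and 38.4, 38.9, 70.4, 48.0 and 34.2 CPM in *Stat5* Adipoq BAT. The highest library was *Stat5* Adipoq replicate 3, and control replicate 5 lay within the *Stat5* Adipoq range (log2 fold change 0.55, SE 0.21, edgeR adjusted p = 0.22). Without *Stat5* Adipoq replicate 3 the log2 fold change of *Gbp3* was 0.34. *Gbp2*, at 12.3 CPM per kb in control BAT the highest of the 4 per exon length, was 36.3, 29.4, 18.5, 29.9 and 41.1 CPM in controls and 33.5, 44.4, 37.7, 31.7 and 28.4 CPM in *Stat5* Adipoq BAT. The genotypes overlapped broadly in *Gbp2* (log2 fold change 0.18, 95% limits -0.21 and 0.57). Its log2 fold change fell to 0.0491 when control replicate 3 was left out and to 0.0766 when *Stat5* Adipoq replicate 2 was, and rose to 0.297 when control replicate 5 was.

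The 3 immunoproteasome subunits replace their constitutive counterparts after interferon-γ. *Psmb8* was 18.6 ± 3.84 CPM in control and 14.7 ± 1.62 CPM in *Stat5* Adipoq BAT (SD, n = 5 each), and *Psmb9* was 11.6 ± 3.76 and 9.25 ± 1.03 CPM (SD, n = 5 each). Both had a log2 fold change of -0.33, with edgeR adjusted p-values of 0.28 and 0.48. Of the exon bases of *Psmb8*, 14.7% overlap exons of the opposite-strand gene *Gm20496*, which also overlaps *Tap2*. *Psmb10* was 20.8, 23, 17.4, 18.6 and 24.5 CPM in controls and 21, 22.5, 22.3, 19.1 and 19.1 CPM in *Stat5* Adipoq BAT. All *Stat5* Adipoq libraries lay within the control range in *Psmb10* (95% limits -0.22 and 0.22). Without control replicate 3, edgeR called *Psmb8*, *H2-D1* and *Tap2* lower, against 224 of 13400 genes.

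*Tap2*, a subunit of the peptide transporter, was the member called. It was 80.4, 79.9, 56.4, 68.8 and 81.5 CPM in control replicates 1 to 5 and 60.0, 55.5, 52.4, 55.6 and 53.2 CPM in *Stat5* Adipoq replicates 1 to 5. Of the controls 4 lay above all *Stat5* Adipoq libraries, and control replicate 3 lay below *Stat5* Adipoq replicate 1. The genotypes averaged 73.4 ± 10.8 and 55.4 ± 2.96 CPM (SD, n = 5 each), and edgeR gave a log2 fold change of -0.41 with SE 0.09 and adjusted p = 0.040. The exact permutation p was 0.016. *Tap2* kept its call in 2 of 10 fits that each left out 1 library, those without control replicate 3 (adjusted p = 0.0023) and without *Stat5* Adipoq replicate 1 (0.045), while in the other 8 edgeR gave an adjusted p between 0.061 and 0.11. The log2 fold change in those 8 fits lay between -0.434 and -0.368. Of 9 other settings 8 called *Tap2*, and the libraries with neighbouring numbers did not (log2 fold change -0.325). The gene lies at chr17:34203527-34216321 of GRCm38 on the plus strand, and 18.5% of its exon bases overlap exons of opposite-strand genes. Whether counting used strand was not stated, so reads of these genes cannot be told apart.

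*Tap1*, the partner of *Tap2* in the transporter, was 15.9 ± 4.33 and 17.1 ± 2.29 CPM (SD, n = 5 each). *Tapbp*, encoding tapasin, which bridges the transporter and class I molecules, was 154, 165, 153, 138 and 160 CPM in controls and 155, 168, 165, 172 and 169 CPM in *Stat5* Adipoq BAT. The genotypes overlapped, and the log2 fold change of *Tapbp* was 0.10 (95% limits -0.02 and 0.23), or 0.0643 without control replicate 4. Of its exon bases, 24.9% overlap opposite-strand exons.

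All 4 class I chain genes had log2 fold changes below 0, from -0.35 to -0.0005. *B2m*, the light chain shared by class I molecules, was the member with the highest level per exon length, 476 CPM per kb in control BAT. It was 522, 376, 379, 396 and 373 CPM in controls and 416, 504, 438, 315 and 371 CPM in *Stat5* Adipoq BAT. The genotypes covered much the same range (95% limits of the log2 fold change -0.27 and 0.27). Control replicate 1 was highest for *B2m* and for the summed class I chains (1124 CPM), and leaving it out gave a log2 fold change of 0.102 for *B2m*.

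*H2-D1*, a classical class I heavy chain, was 206, 161, 123, 176 and 196 CPM in controls and 156, 141, 142, 122 and 115 CPM in *Stat5* Adipoq BAT. Control replicate 3 lay among the *Stat5* Adipoq libraries, and 4 controls lay above them all. The log2 fold change was -0.35 (SE 0.13, edgeR adjusted p = 0.20), and without control replicate 3 the adjusted p was 0.026. *H2-K1* was 303 ± 61.7 and 266 ± 28.6 CPM and *H2-T23* was 24 ± 6.85 and 19.8 ± 5.56 CPM (SD, n = 5 each). These chains resemble each other, and 14.3% of the 50-base words of *H2-D1* occur in other genes.

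**Figure D2:**
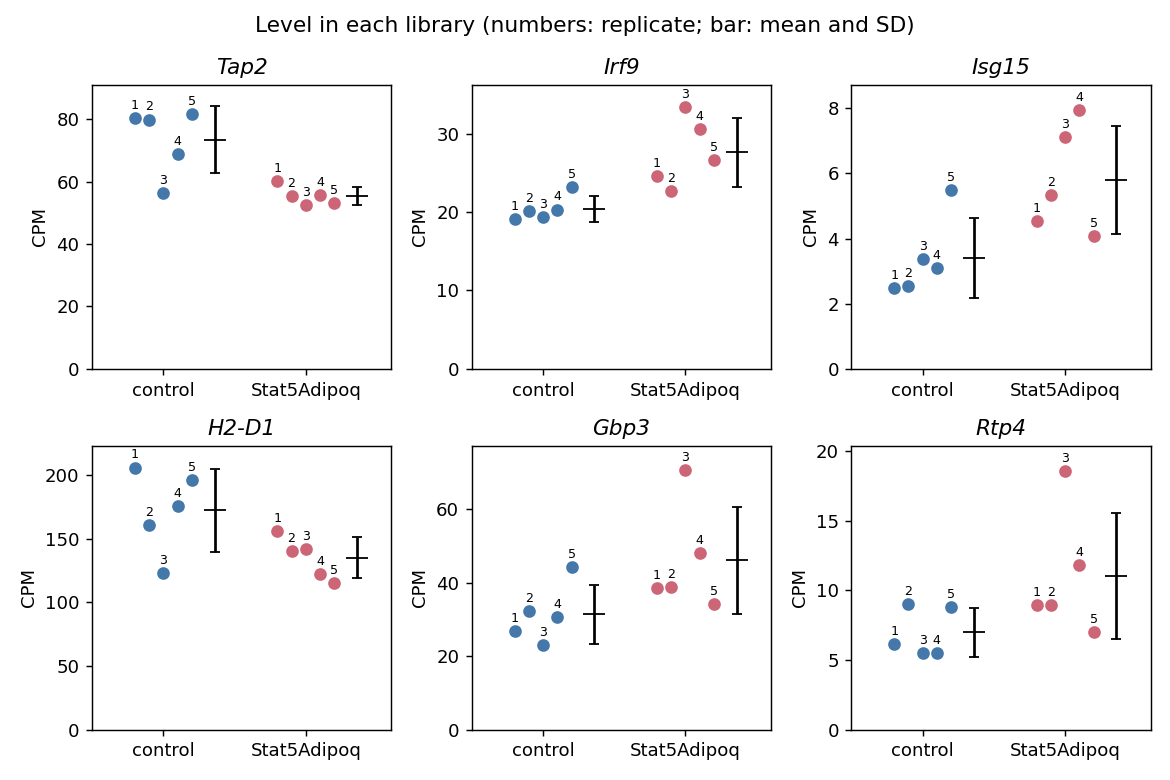
CPM of the member called and of the 5 members with the smallest p among the rest, 1 point per library with its replicate number, and the mean and SD of each genotype (n = 5). Control replicate 3 lies nearest the *Stat5* Adipoq libraries in *Tap2*, and *Stat5* Adipoq replicates 3 and 4 lie highest in *Irf9*, *Isg15*, *Gbp3* and *Rtp4*.

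The libraries of one genotype differed from each other in these genes. Of the 31 interferon-stimulated members, 19 had their highest value in *Stat5* Adipoq replicate 3 and 6 in replicate 4, against 1607 and 1256 of 13568 genes, and 17 had their lowest in control replicate 3 and 8 in control replicate 1, against 2432 and 1315. As a median over these 31 genes, the deviation of a library from each gene's mean over the 10 libraries (log2 of CPM plus 0.5) was -0.18, -0.09, -0.40, -0.20 and 0.23 in control replicates 1 to 5 and 0.02, -0.01, 0.49, 0.32 and -0.07 in *Stat5* Adipoq replicates 1 to 5. Control replicate 5 thus lay above 3 of the *Stat5* Adipoq libraries. Over the 10 genes of antigen processing and class I chains it was 0.32, 0.13, -0.25, -0.06 and 0.30 in controls and 0.0009, 0.04, 0.02, -0.22 and -0.15 in *Stat5* Adipoq BAT. *Stat5* Adipoq replicates 3 and 4, highest for the interferon-stimulated genes, were not high for these. The median log2 fold change was 0.27 for the 31 genes and -0.24 for the 10, and it kept its sign in each fit that left out 1 library.

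**Figure D3:**
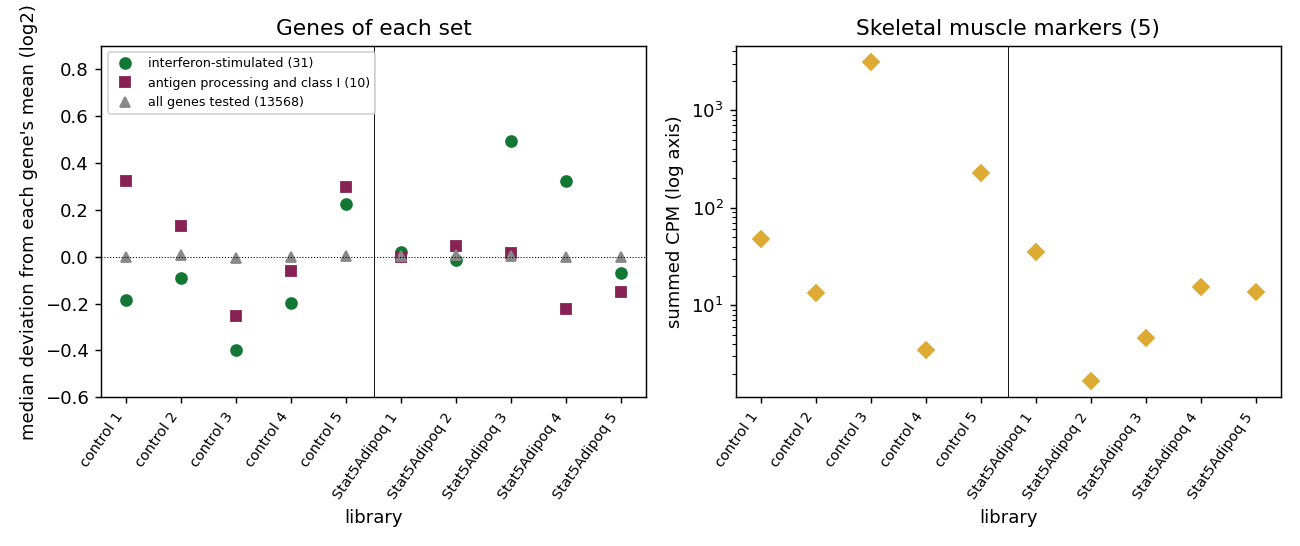
Left, median deviation of each library from the gene means over the 10 libraries (log2) for 31 interferon-stimulated members, 10 members of antigen processing and class I, and all 13568 genes. Right, summed CPM of 5 skeletal muscle markers on a log axis, highest in control replicate 3 (3127 CPM), the library in which the interferon-stimulated genes were lowest, and next in control replicate 5 (229 CPM), where they were the highest of the controls.

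The wider pathway was described with further gene lists. Of 10 listed interferon genes, 9 had 0 counts in all libraries, and *Ifng* had at most 2 counts in a library. Of the 12 ligands listed 2 were tested, and *Il15*, with the smaller p, was 4.28 ± 0.815 and 5.25 ± 1.04 CPM (SD, n = 5 each; edgeR adjusted p = 0.48). Of 10 receptors and kinases, with *Stat3* set among them, 0 were called by edgeR or DESeq2 and 1 was lower at an unadjusted p below 0.05, against 8.03% of all genes. This was *Stat3*, at 103 ± 6.16 and 92.4 ± 7.80 CPM (SD, n = 5 each). Of 17 sensors and adaptors, 0 were called by either tool and 1 was lower at an unadjusted p below 0.05, against 8.03% of all genes. This was the adaptor *Myd88*, at 28.7 ± 3.40 and 24.9 ± 1.87 CPM (SD, n = 5 each).

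Of 11 negative regulators tested, 1 was called lower, against 1.31% of all genes, and 0 higher by edgeR or DESeq2 or at an unadjusted p below 0.05. This was *Cish*, a feedback inhibitor that STAT5 induces. It was 30.4, 40.1, 37.5, 31.5 and 41.4 CPM in controls and 9.72, 17.1, 3.23, 9.47 and 3.12 CPM in *Stat5* Adipoq BAT. The genotypes did not overlap, as in 2.04% of all genes in the lower direction, and *Stat5* Adipoq replicates 3 and 5 had the lowest values (log2 fold change -2.06, SE 0.36, edgeR adjusted p = 0.011).

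Of 54 other interferon-induced genes tested, edgeR called 2 higher and 0 lower, against 1.40% and 1.31% of all genes, with 12 higher and 2 lower at an unadjusted p below 0.05, against 7.18% and 8.03%. DESeq2 called 3 higher and 1 lower, against 2.40% and 2.46%. The log2 fold change was above 0 for 38 of the 54 (70.4%), against 49.2% of all genes. Control replicate 3, the library with the most muscle RNA and the fewest counts, was lowest for 23 of the 54, against 2432 of 13568 genes. *Stat5* Adipoq replicate 3 was highest for 14 and control replicate 5 for 12, against 1607 and 1389 genes. *Lgals9*, encoding galectin-9, was 42.1, 45.1, 46.1, 45.8 and 50.9 CPM in controls and 65.1, 61.5, 93.1, 77.0 and 69.5 CPM in *Stat5* Adipoq BAT (log2 fold change 0.67, SE 0.10, edgeR adjusted p = 0.0055). *Samd9l*, an interferon-induced antiviral gene, was 15.1, 15.3, 14.2, 15.3 and 17.3 CPM in controls and 21.1, 18.5, 30.0, 21.6 and 22 CPM in *Stat5* Adipoq BAT (log2 fold change 0.55, SE 0.12, edgeR adjusted p = 0.030). Libraries did not overlap for 3 of the 54, each higher, against 2.35% of all genes in that direction: these 2 and *Ifi203* (edgeR adjusted p = 0.16), named after its values were seen. In *Lgals9* and *Samd9l* all 5 *Stat5* Adipoq libraries lay above all controls, and *Stat5* Adipoq replicate 3 was highest (exact permutation p = 0.0079, the smallest that 5 against 5 libraries can give).

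Of 18 other antigen presentation genes tested, 15 had a log2 fold change below 0, against 50.8% of all genes, and 0 were called by edgeR. At an unadjusted p below 0.05, 3 were lower and 1 higher, against 8.03% and 7.18% of all genes, and DESeq2 called 1 lower, against 2.46%. The smallest p was that of *H2-Q4*, a class I gene at 32.0 ± 6.84 and 20.8 ± 3.44 CPM (SD, n = 5 each; edgeR adjusted p = 0.061), which shares 22% of its 50-base words with other genes. The higher gene was *H2-Q10*, a class I gene named after its values were seen. It was 126, 141, 241.36, 51.0 and 37.0 CPM in controls and 241.37, 464, 252, 247 and 414 CPM in *Stat5* Adipoq BAT, so control replicate 3 and *Stat5* Adipoq replicate 1 nearly met and the genotypes were barely separated, against 2.35% of all genes not overlapping in the higher direction (log2 fold change 1.45, SE 0.43, edgeR adjusted p = 0.11). *H2-Q10* shares 19.7% of its 50-base words with other genes. All 14 constitutive proteasome subunits had log2 fold changes below 0, from -0.19 to -0.02, against 50.8% of all genes. Control replicate 3, the library with the most muscle RNA and the fewest counts, was highest for 8 of the 14, against 2517 of 13568 genes. Of the 14 subunits 0 were called by either tool, with 3 lower at an unadjusted p below 0.05, against 8.03% of all genes. *Psmb3* had the smallest p, at 32.7 ± 1.22 and 29.2 ± 1.85 CPM (SD, n = 5 each). Of 9 class II genes tested, 8 were below 0, against 50.8% of all genes, and 0 were called by either tool, with *H2-DMb2* at 0.880 ± 0.478 and 0.298 ± 0.133 CPM (SD, n = 5 each) the 1 gene lower at an unadjusted p below 0.05, against 8.03% of all genes.

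Markers of cell types that BAT can hold were set beside these values. Brown adipocyte markers were present (7 of 7 tested, *Ucp1* the most abundant) at a summed 22710 ± 4314 CPM in control and 22940 ± 2345 CPM in *Stat5* Adipoq BAT (SD, n = 5 each). *Ucp1* averaged 9004 CPM in control and 10620 CPM in *Stat5* Adipoq BAT. Of the 7 markers, 5 had a log2 fold change below 0, against 50.8% of all genes. *Cidea* was the 1 lower at an unadjusted p below 0.05 by edgeR, against 8.03% of all genes. Macrophage markers (8 of 8 tested, *Lyz2* the most abundant) summed to 126 ± 12.3 and 118 ± 11.6 CPM, and the sum was lowest in *Stat5* Adipoq replicate 3 (97.7 CPM). Endothelial markers (5 of 5, *Kdr* the most abundant) summed to 779 ± 59.3 and 842 ± 66.3 CPM. The plasmacytoid dendritic cell list (3 of 4 tested) includes the member *Bst2* and summed to 112 ± 9.0 and 125 ± 12.7 CPM, of which *Tcf4*, the most abundant, was 88.2 CPM in control BAT. T cell (4 of 7 tested), NK cell (2 of 5), B cell (3 of 4) and neutrophil (2 of 4) markers summed to 4.09 ± 1.70, 1.45 ± 1.56, 2.55 ± 0.6 and 1.55 ± 2.08 CPM in control and 2.31 ± 1.13, 0.688 ± 0.280, 3.07 ± 0.337 and 1.6 ± 1.2 CPM in *Stat5* Adipoq BAT (SD, n = 5 each). Single libraries carried some of these sums. NK cell markers were 4.21 CPM in control replicate 1 and 0.361 to 1.0 CPM in the other controls, and neutrophil markers were 5.26 CPM in control replicate 4 and 0.479 to 0.726 CPM in the other controls. In *Stat5* Adipoq replicates 1 to 5 neutrophil markers were 0.335, 0.769, 3.14, 2.42 and 1.36 CPM, highest in replicates 3 and 4, as were the interferon-stimulated members. The controls did not share this order. Control replicate 4, highest of all libraries for neutrophil markers, had a median deviation of -0.20 over the interferon-stimulated members, and control replicate 5 had 0.23. The tested neutrophil markers *S100a8* and *S100a9* had 0 to 33 and 3 to 71 counts per library. Control replicate 1 was also the highest library for T cell markers (7.09 CPM), as it was for the class I chains. *Ly6g* of the neutrophil list had at most 1 count in a library. Of 39 marker genes tested, muscle included, 0 were called by edgeR, with 3 higher and 9 lower at an unadjusted p below 0.05, against 7.18% and 8.03% of all genes, while DESeq2 called 2 lower, against 2.46%, both of skeletal muscle, and gave the other 3 muscle markers no adjusted p. The part of these cells in the results was not tested.

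Promoters were searched for the ISRE core, GAAANNGAAA on both strands (TTTCNNTTTC where it lies on the other strand), in RefSeq windows from 250 bases before to 50 bases after the gene start. Windows were found for 31 of the 41 members, and 15 of the 31 (48.4%) held the core, against 3.99% of 27025 genes with a promoter. Both RNA sensors with a window held it, as did 4 of 4 GTPases, 6 of 11 antiviral effectors and 2 of 4 class I chains, while 1 of 4 transcription factors did and 0 of 1 modifier, 0 of 3 immunoproteasome genes and 0 of 2 peptide loading genes. *Tap2* had no entry. The STAT site TTCNNNGAA, which is its own reverse complement, was in 7 of the 31 (22.6%), against 9.55% of all genes. A match is a description of the sequence and not of binding. Most members were listed as interferon-stimulated genes, so a higher share of ISRE cores comes with the list and is no result of the libraries.

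Stretches around the matches are shown for interferon-stimulated genes with more than 1 match, so that the arrangement of their cores can be compared, and for *B2m* and *H2-T23*, the class I chains with a match. They are given from 5′ to 3′ on the strand of the gene, from RefSeq on GRCm38.p6, with the ISRE core in capitals. They lie at chr4:156200860-156200911 (minus strand) for *Isg15*, chr19:34640770-34640828 (plus) for *Ifit1*, chr19:34583358-34583431 (plus) for *Ifit3*, chr5:120907526-120907560 (minus) for *Oas1a*, chr8:71537572-71537617 (minus) for *Bst2*, chr3:142559984-142560029 (plus) for *Gbp3*, chr11:48871421-48871465 (minus) for *Irgm1*, chr2:122147533-122147572 (plus) for *B2m* and chr17:36032801-36032840 (minus) for *H2-T23*. The 3 cores of *Isg15* overlap, as do the 2 of *Oas1a*, *Bst2*, *Gbp3* and *Irgm1*, whereas those of *Ifit1* and *Ifit3* stand apart.
Isg15: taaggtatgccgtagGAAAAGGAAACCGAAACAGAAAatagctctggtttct
Ifit1: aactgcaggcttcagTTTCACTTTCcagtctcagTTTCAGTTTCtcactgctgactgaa
Ifit3: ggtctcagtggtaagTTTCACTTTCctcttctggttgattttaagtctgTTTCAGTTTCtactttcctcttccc
Oas1a: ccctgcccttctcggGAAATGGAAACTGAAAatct
Bst2: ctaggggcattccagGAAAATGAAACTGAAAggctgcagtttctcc
Gbp3: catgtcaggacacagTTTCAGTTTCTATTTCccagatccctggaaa
Irgm1: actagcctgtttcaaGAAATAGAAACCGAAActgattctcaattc
B2m: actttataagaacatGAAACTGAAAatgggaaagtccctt
H2-T23: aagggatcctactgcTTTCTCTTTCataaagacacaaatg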

How the data were processed

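According to the methods, single-end reads (50 bases) were mapped by the authors with STAR 2.5.0b on GRCm38 and summed over exons with featureCounts 1.5.0-p1, and the deposited values are raw counts per gene, which they did not normalize. The authors' deposited table also holds fold changes and p-values from DESeq2 1.16.1, and only its gene symbols and identifiers were used here. Genes were kept where the sum of size factor normalized counts was above 45. Genotypes were compared in R 4.3.3 with edgeR 4.0.16 (quasi-likelihood F test, TMM, no covariate) with Benjamini-Hochberg adjustment. Single genes were also compared by exact permutation tests of log2 CPM (pseudocount 0.5) over all 252 assignments. No pair of libraries differed by sampling noise alone. Alternatives were DESeq2 1.42.0, limma-voom 3.58.1, other scalings and filters, a replicate block, each library left out, and 5 libraries with neighbouring numbers. The last were control replicates 1 to 3 and *Stat5* Adipoq replicates 1 and 2. The code was tested on simulated counts: edgeR and limma-voom kept the share of false calls near the threshold, whereas DESeq2 made clearly more false calls than its threshold allows and missed the limit first set for all 3 tools, so that limit was applied to edgeR and limma-voom alone. The simulation used edgeR's dispersions, which favours edgeR. Calls made by DESeq2 alone carry that reservation.

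Members and lists were chosen with earlier results of these data known. Values in every library are given for members called, members whose libraries did not overlap, the 5 smallest p among the rest, and the highest level per exon length in each role, and from other lists for genes called, or else the smallest p is named. Exon lengths and shared 50-base words come from GENCODE gene models of GRCm38. One gene of the wider lists is not reported here, and it was taken out of its list after the values were seen, which changed no count of genes called or at an unadjusted p below 0.05 in that list.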

Additional observations from a re-analysis of the deposited data

Results flagged for a closer look

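In 86 groups of 5 libraries (41 members and both *Stat5* genes in each genotype), 10 had a library far from the other 4 for the range of the group. Chance flags about 1 in 20 groups, or 4.30 here. The groups share the same 10 libraries and are not independent, so the difference from 4.30 cannot be weighed. In control replicate 5, *Ifit1* was 9.96 CPM against 3.64 to 4.72 in the other controls, *Ifit3* was 10.4 CPM against 2.53 to 4.31, and *Mx1* was 1.92 CPM (21 counts) against 0.363 to 0.601. In control replicate 3, the library with the most muscle RNA and the fewest counts, *Ifi35* was 15.3 CPM against 19.8 to 21.4 and *Parp14* was 24.9 CPM against 34.1 to 36.9. In *Stat5* Adipoq replicate 3, *Igtp* was 32.5 CPM against 16.5 to 19.5 and *Irgm1* was 33.0 CPM against 21.7 to 24.3. *Trim25* was 39.7 CPM in *Stat5* Adipoq replicate 2 against 55.3 to 59.2, *B2m* was 522 CPM in control replicate 1 against 373 to 396, and *Stat5a* was 20.7 CPM in *Stat5* Adipoq replicate 1 against 15.8 to 16.6. The causes were not tested.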

How the results depend on the processing

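The number of genes called was 368 by edgeR, 660 by DESeq2's Wald test, and 4 in the 5 libraries with neighbouring numbers, where fewer samples were fitted. It was 185 to 443 with 1 library left out. DESeq2 made too many false calls on simulated counts. Those counts were drawn with edgeR's dispersions, so they cannot show how many of the 660 calls are false. Members called lower were 1 by edgeR, 0 to 3 with 1 library left out and 0 in the 5 libraries with neighbouring numbers. Members called higher were 0 by edgeR, 1 by DESeq2 (*Irf9*), 0 to 2 with 1 library left out (*Irf9* and *Isg15* without control replicate 5, *Irf9* without *Stat5* Adipoq replicate 2) and 1 without control replicates 3 and 5. Over all genes, 179 of 13446 were called higher without control replicate 5 and 134 of 13401 without *Stat5* Adipoq replicate 2. Without control replicates 3 and 5, 159 of 13258 genes were called higher. The median log2 fold change of the members moved by less than the spread between libraries in each setting. The 5 libraries with neighbouring numbers left out *Stat5* Adipoq replicates 3 and 4, the highest in *Bst2*, *Rtp4* and *Irf9*. They kept *Stat5* Adipoq replicate 2, the highest in *Gbp2*. In these 5 libraries some log2 fold changes lay nearer 0 than with all libraries. Among these were *Bst2* (0.115), *Trim25* (0.0472), *Tapbp* (0.0331), *Rtp4* (0.37), *Irf9* (0.273) and *H2-D1* (-0.143), whereas *Gbp2* (0.468) lay further from 0. With the replicate block 273 genes were called, and the block changed no call among the named members. Only 1 of 5 control libraries correlated best with its own number, so the numbers were not taken to pair the mice.

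Log2 fold changes near 0 turned in sign, and none of these values passed the test. *Irf1* was 0.00924 with limma-voom and 0.00759 in the libraries with neighbouring numbers, and ranged from -0.128 to 0.0843 with 1 library left out. *Psmb10* was 0.0155 and 0.0908 in these settings and 0.00998 without control replicates 3 and 5, and ranged from -0.0534 to 0.0623. *B2m* was 6.18e-05 without a filter on low counts and 0.111 in the libraries with neighbouring numbers, and ranged from -0.0874 to 0.102. The causes were not tested.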
